A study of Homo sapiens with 12 samples.

Results

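Histone genes were followed by class in RKO cells, a human colorectal cancer line, given the plant quinone thymoquinone (TQ), the antimetabolite 5-fluorouracil (5-FU), or the pair. A probe set was taken where the platform annotation names 1 gene only and its symbol begins with H1-, H2AC, H2BC, H3C, H4C, H2AZ, H2AX, H3-3 or MACROH2A, and where a gene had more than 1 such probe set, the brightest over the 12 arrays stood for it. This gave 48 histone genes of 11963 genes measured: 5 linker H1, 8 H2A, 12 H2B, 7 H3 and 8 H4 genes of the replication-dependent kind, and 8 variant genes. The classes were held against each other across 4 groups of 3 arrays: the combination of both drugs (TQ+5-FU), 5-FU alone, TQ alone, and control cells. The 5-FU concentration was 10 µg/mL, which is 76.8 µM, and that of TQ was 20 µM. Treatment lasted 24 h. Control cells are untreated by their labels but received DMSO by the study's methods, so whether all groups share this solvent is unsettled. The measure is the log2 signal of a probe set on an Affymetrix human gene expression array. A gene is said to have risen or fallen only where limma's adjusted p was under 0.05. The p-values rest on the spread between the 3 arrays of a group, pooled over all 4 groups. Arrays outside a comparison therefore also enter its p-value. The study's methods speak of biological replicates for its sample size, while the labels do not tie an array to a culture.

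A nucleosome wraps DNA around a core of the histones H2A, H2B, H3 and H4, and the linker histone H1 sits where the DNA enters and leaves it. Replication-dependent histone genes lie in clusters, have many near-identical copies and are transcribed in S phase, when new DNA has to be packaged. Most of their mRNAs end in a stem-loop bound by SLBP instead of a poly(A) tail, although some of these genes also give polyadenylated transcripts. Variant histones such as H2A.Z, H3.3 and macroH2A are made throughout the cell cycle from polyadenylated mRNA. The arrays were labelled from an oligo(dT) primer, so that the signal reads polyadenylated RNA. Of the 48 genes, 38 lie on chromosome 6 and 3 on chromosome 1 in the RefSeq annotation of GRCh38.p14.

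The start regions of 5 of the genes whose signals differed between groups are printed here, from the H3, H4, H2B and H1 classes, to show how their proximal sequence differs by class. Each runs from 250 bases before to 50 bases after the RefSeq start site on GRCh38.p14, read 5′ to 3′ on the gene's strand. H3C2 is at chr6:26032050-26032349 (minus strand), H3C7 at chr6:26250586-26250885 (minus), H4C8 at chr6:26285485-26285784 (minus), H2BC12 at chr6:27146809-27147108 (minus) and H1-4 at chr6:26156079-26156378 (plus). Capitals mark 4 motifs on either strand: the CCAAT box (CCAAT), the TATA box (TATAAA), the octamer (ATTTGCAT) and the H1 box (AAACACA), some of which overlap.
H3C2: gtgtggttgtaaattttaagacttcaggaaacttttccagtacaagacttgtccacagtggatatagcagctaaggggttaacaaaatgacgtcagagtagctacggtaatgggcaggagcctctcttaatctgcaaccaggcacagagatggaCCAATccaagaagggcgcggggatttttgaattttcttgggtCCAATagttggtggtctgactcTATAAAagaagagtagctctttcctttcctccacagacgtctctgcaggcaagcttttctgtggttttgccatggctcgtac
H3C7: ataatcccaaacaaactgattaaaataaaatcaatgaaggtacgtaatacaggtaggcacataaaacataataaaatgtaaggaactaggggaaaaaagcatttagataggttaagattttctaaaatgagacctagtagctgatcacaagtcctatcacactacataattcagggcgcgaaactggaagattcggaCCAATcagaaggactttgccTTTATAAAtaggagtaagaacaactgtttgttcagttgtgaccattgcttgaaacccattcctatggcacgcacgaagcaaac
H4C8: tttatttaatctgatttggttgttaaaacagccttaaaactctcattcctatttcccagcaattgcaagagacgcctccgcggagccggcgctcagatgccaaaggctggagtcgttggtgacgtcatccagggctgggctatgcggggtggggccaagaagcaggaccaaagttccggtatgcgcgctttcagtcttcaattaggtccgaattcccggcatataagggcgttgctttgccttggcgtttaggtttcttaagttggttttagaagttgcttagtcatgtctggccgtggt
H2BC12: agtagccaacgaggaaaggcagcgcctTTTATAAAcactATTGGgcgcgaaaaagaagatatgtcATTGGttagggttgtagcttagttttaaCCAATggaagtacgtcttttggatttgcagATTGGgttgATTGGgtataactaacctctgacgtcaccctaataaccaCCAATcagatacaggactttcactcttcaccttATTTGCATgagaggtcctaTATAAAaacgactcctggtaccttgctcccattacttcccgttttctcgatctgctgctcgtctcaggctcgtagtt
H1-4: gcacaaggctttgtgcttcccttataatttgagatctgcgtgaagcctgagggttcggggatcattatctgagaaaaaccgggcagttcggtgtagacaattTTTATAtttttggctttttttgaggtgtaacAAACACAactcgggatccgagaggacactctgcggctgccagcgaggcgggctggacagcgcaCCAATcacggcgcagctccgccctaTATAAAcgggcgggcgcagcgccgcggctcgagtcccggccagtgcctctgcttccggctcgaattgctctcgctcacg
The octamer of H2BC12 lies at -46 to -39 and its nearest TATA box at -27 to -22. H3C2 and H3C7 hold a CCAAT box at -54 to -50 and at -53 to -49, and TATA boxes at -32 to -27 in H3C2 and at -31 to -26 in H3C7. The H1 box of H1-4 lies at -117 to -111. None of these letters occurs in the window of H4C8.

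Start regions were found for 45 of the 48 genes. The octamer was present in 8 of 11 H2B and 6 of 8 H2A genes, in 0 of the H1, H3 and H4 genes, and in 1.8% of 27305 start regions of all genes. The H1 box was present in 5 of 5 linker H1 genes and in 5.76% of all start regions. CCAAT was held by 82.2% of the histone genes and 35.7% of all genes, but by 2 of 7 H4 genes. TATAAA was held by 62.2% of the histone genes and 12% of all genes. A match describes the letters in the window and was not tied to binding or to the signals.

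A pair of arrays stood apart from their own replicates across all probe sets, 5-FU replicate 3 and TQ+5-FU replicate 2, and the histone signals were displaced with them. TQ+5-FU replicate 2 had the highest signal of its group in 44 of 48 genes, and 5-FU replicate 3 in 43 of 48. In the control group replicate 3, which did not stand apart over all probe sets, was highest in 39 of 48, and in the TQ group replicate 1 was highest in 27. H2AC6 and H4C8 were among the exceptions, with their lowest 5-FU signal in replicate 3. Over the 40 replication-dependent genes the median departure from the control mean was 0.08, 0.57 and 0.12 in TQ+5-FU replicates 1 to 3, and -0.24, -0.11 and 0.32 in 5-FU replicates 1 to 3 (log2). The median over all 11963 genes moved with it, at 0.12 in TQ+5-FU replicate 2 and 0.37 in 5-FU replicate 3. The mean of 24 poly-A spike-in probe sets was 9.47 in 5-FU replicate 3 and 8.94 in TQ+5-FU replicate 2, against 8.22 to 8.97 on the other arrays. Mean signals of 6 leukocyte markers were 5.14 in 5-FU replicate 3 and 4.86 in TQ+5-FU replicate 2, against 4.52 to 4.72 elsewhere, and those of 8 fibroblast markers 5.59 and 5.23 on these arrays, against 4.84 to 5.10. The 3′ minus 5′ difference of ACTB, a sign of RNA quality, was 0.67 to 0.96 in TQ+5-FU, 0.56 to 0.73 in 5-FU, 0.57 to 0.67 in TQ and 0.58 to 0.60 in control arrays, and that of GAPDH was 0.071 to 0.13 in TQ+5-FU, 0.063 to 0.073 in 5-FU, 0.046 to 0.075 in TQ and 0.047 to 0.067 in control arrays. The 6 epithelial and RKO markers averaged 7.74 to 8.13 on the 12 arrays. What part these differences have in the histone results was not tested. Counts, medians and part of the gene results are also given without the 2 displaced arrays. Where nothing else is said, a gene described as not called was not called on all 12 arrays.

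**Figure D1:**
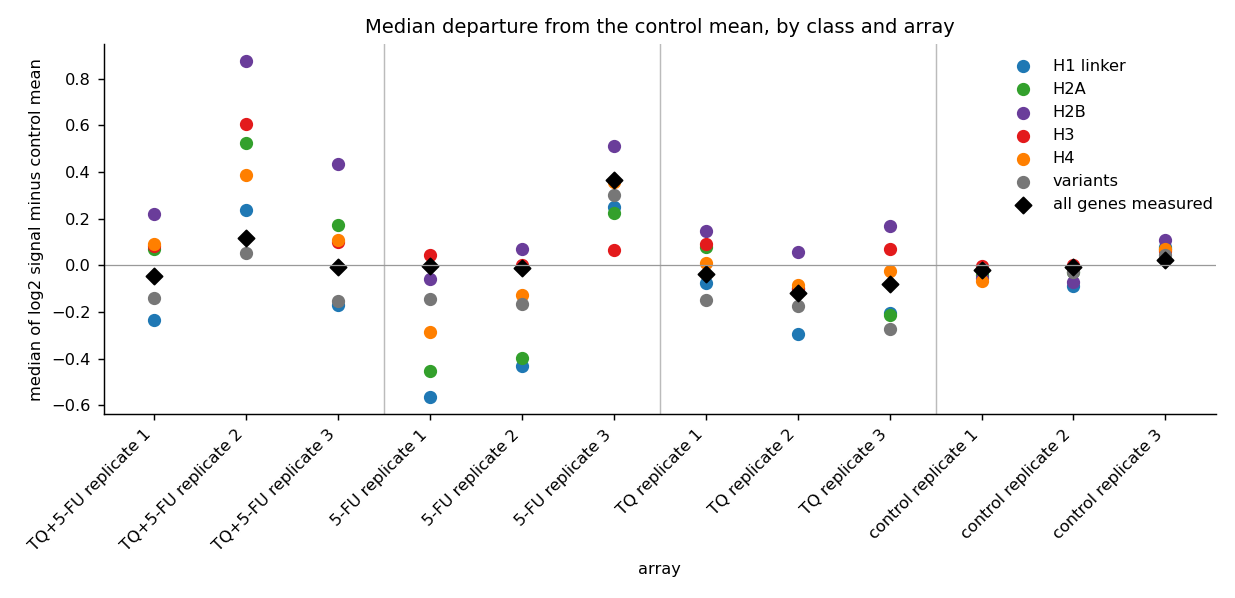
Median departure of log2 signal from the mean of the 3 controls (vertical axis) on each array (horizontal axis), with 1 point per histone class and a diamond for all genes measured. H2B reaches 0.88 in TQ+5-FU replicate 2, and 5-FU replicate 3 lies apart from the other 5-FU arrays in every class but H3.

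On the probe sets that stand for the genes, 10 of the 48 histone genes differed across the 4 groups by limma's moderated F. All 10 were replication-dependent: H1-4, H2AC6, H2BC12, H2BC12L, H2BC6, H2BC11, H2BC17, H3C7, H3C2 and H4C8. Over all probe sets 7.54% were called by the same test. Without the 2 displaced arrays the F test called 32 histone genes, 27 replication-dependent and 5 variant, against 42% of all probe sets. By class the main count was 1 of 5 linker H1, 1 of 8 H2A, 5 of 12 H2B, 2 of 7 H3, 1 of 8 H4 and 0 of 8 variant genes. At an unadjusted p under 0.05, 16 histone genes passed, 1 of them a variant, beside 21.1% of all probe sets.

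**Figure D2:**
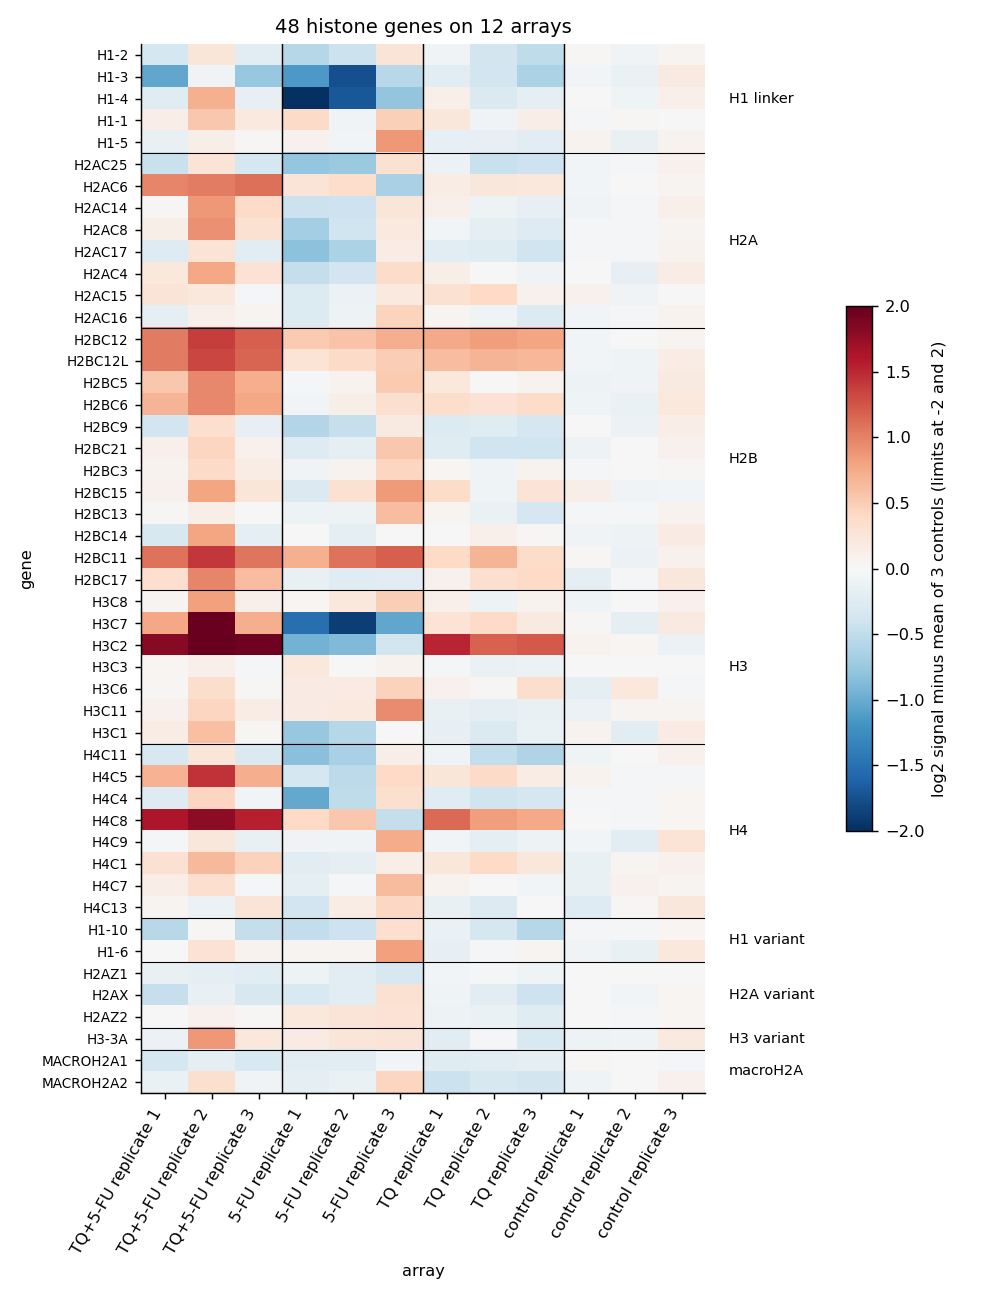
Log2 signal minus the mean of the 3 controls (colour) for 48 histone genes (rows, by class) on 12 arrays (columns). H3C2, H4C8, H2BC12 and H2BC12L are red on all 3 TQ+5-FU arrays, whereas H1-4 and H3C7 are blue on all 3 5-FU arrays.

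The comparison of the combined treatment with control had the most calls: 8 histone genes rose and 0 fell. The higher 3′ minus 5′ difference of ACTB in the TQ+5-FU arrays goes with this comparison, and its part in it was not tested. All 8 were replication-dependent, 5 of them H2B genes, some read by probe sets that can bind several similar transcripts. Over all probe sets 2.58% were called in this comparison, 1.48% higher and 1.1% lower. With 5-FU alone 2 rose (H2BC11, H2BC12) and 2 fell (H1-4, H3C7), where 6.68% of all probe sets were called, 3.54% higher and 3.13% lower. With TQ alone 1 rose (H2BC12), where 0.252% of all probe sets were called, 0.14% higher and 0.113% lower. These comparisons share the control arrays. Against 5-FU alone, TQ+5-FU cells had 5 histone genes higher and 0 lower, where 0.738% of all probe sets were called, 0.383% higher and 0.356% lower. Against TQ alone, TQ+5-FU cells had 0 called by limma, where 0.968% of all probe sets were called, 0.819% higher and 0.149% lower. The unadjusted p was under 0.05 for 14 histone genes there, all higher, beside 7.84% of all probe sets higher and 4.23% lower (12.1% in all). Between the single drugs, 1 histone gene was higher and 3 lower in 5-FU than in TQ cells, where 10.2% of all probe sets were called, 6.61% higher and 3.57% lower. Those 4 were H2AZ2 on the higher side and H1-4, H3C2 and H3C7 on the lower. Leaving out 5-FU replicate 3 alone gave 13 called histone genes for TQ+5-FU, 12 for 5-FU and 4 for TQ against control, 15 for TQ+5-FU against 5-FU, 12 for TQ+5-FU against TQ and 9 for 5-FU against TQ. The share of all probe sets was not computed for that setting, so these counts are not read as a histone result.

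Without the 2 displaced arrays more probe sets were called throughout, and the histone genes are read against those shares. With TQ+5-FU 12 histone genes were higher and 5 lower than control, where 21.4% of all probe sets were called (10.7% higher, 10.7% lower). With 5-FU 5 were higher and 16 lower, where 26.1% were called (12.7% higher, 13.5% lower). With TQ 8 were higher and 9 lower, where 30.6% were called (14.1% higher, 16.5% lower). Between the treated groups the calls ran mostly one way. TQ+5-FU exceeded 5-FU in 18 histone genes and lay below it in 0, where 6.13% of probe sets were called (3.25% higher, 2.88% lower). TQ+5-FU exceeded TQ in 12 and lay below it in 0, where 11.7% were called (7.03% higher, 4.7% lower). In 5-FU cells 4 were higher and 18 lower than in TQ cells, where 28.6% were called (14.6% higher, 14% lower).

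The median log2 difference over the 48 genes was 0.14 with TQ+5-FU, 0.00 with 5-FU and -0.07 with TQ, beside 0.01, 0.09 and -0.09 over all genes. Without the displaced arrays it was 0.06 with TQ+5-FU and -0.16 with 5-FU, beside -0.03 and -0.01 over all genes, and the TQ median is the same by construction. Among the 40 replication-dependent genes it was 0.22 with TQ+5-FU, where 32 had a positive difference, and 0.11 without the displaced arrays. Among the 8 variants it was -0.08, where 4 had a positive difference, and -0.15 without those arrays. All 3 TQ+5-FU arrays lay above all 3 controls in 18 of 48 genes (37.5%), against 11.5% of all probe sets, and below them in 3 (6.25%), against 12.5%. With 5-FU, 5 genes (10.4%) lay wholly above and 6 (12.5%) wholly below control, against 12.5% and 12% of all probe sets. With TQ the numbers were 9 (18.8%) and 18 (37.5%), against 16.6% and 27.8%. Between the treated groups, TQ+5-FU lay wholly above 5-FU in 13 genes and below it in 1, against 4.55% and 5.28% of all probe sets, and wholly above TQ in 18 and below it in 1, against 18.2% and 11%. The 5-FU arrays lay wholly above TQ in 7 genes and below in 9, against 22.6% and 16.2%.

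Without the displaced arrays 18 of 48 histone genes (37.5%) lay wholly above control with TQ+5-FU, beside 20.1% of all probe sets, and 13 lay wholly below, beside 27.6%. With 5-FU 7 lay wholly above and 25 wholly below control, beside 23.4% and 27.8%. TQ+5-FU then lay wholly above 5-FU in 26 genes and below it in 5, beside 20.9% and 24.6%, and above TQ in 19 and below it in 4, beside 21.3% and 15%. The 5-FU arrays lay wholly above TQ in 8 and below in 22, beside 28.1% and 22.9%.

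**Figure D3:**
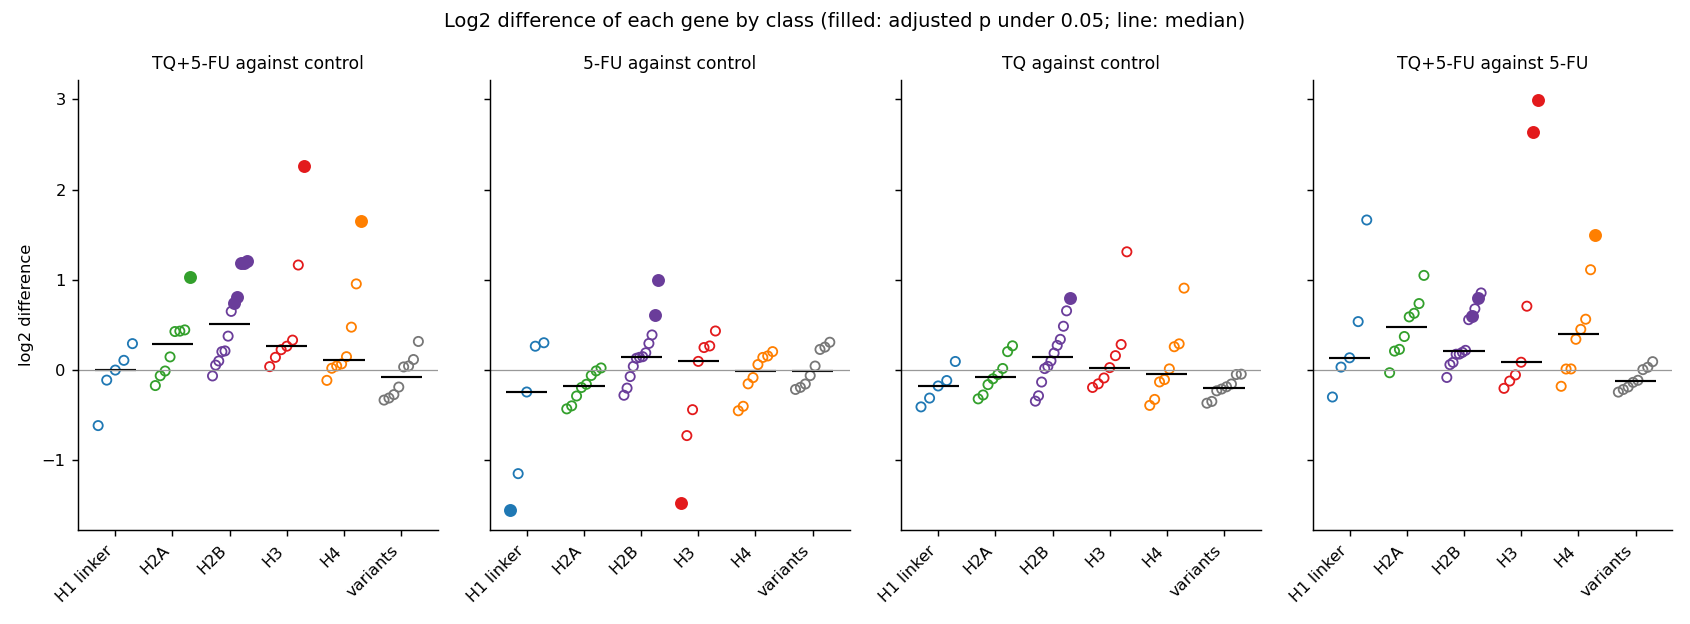
Log2 difference (vertical axis) of each histone gene by class (horizontal axis) in 4 comparisons, with filled points for adjusted p under 0.05 and a line at the class median. Filled points lie above 0 in TQ+5-FU against control and TQ+5-FU against 5-FU, and on both sides of 0 in 5-FU against control.

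The linker histones, which compact nucleosome arrays, held the largest fall with 5-FU. H1-4 (chr6:26156329-26157115) had log2 signals of 7.19, 8.14 and 7.26 in TQ+5-FU cells, 5.23, 5.73 and 6.64 in 5-FU cells, 7.53, 7.13 and 7.25 in TQ cells and 7.41, 7.34 and 7.53 in control cells. The 5-FU arrays lay below every array of the other groups, while TQ+5-FU, TQ and control arrays overlapped. H1-4 fell by 1.56 with 5-FU (SE 0.34, adjusted p = 0.021, 2.95-fold) and was lower in 5-FU than in TQ cells (log2 difference -1.44, SE 0.34, adjusted p = 0.026). In TQ+5-FU cells it was at 0.10 against control (adjusted p = 1.0) and at 1.66 against 5-FU (adjusted p = 0.062, and 2.9e-04 without the displaced arrays). The fall with 5-FU missed the threshold when 5-FU replicate 1 or 2 or any 1 control array was left out, with an adjusted p of up to 0.085. The difference from TQ missed it without 5-FU replicate 2 or any 1 TQ array, with an adjusted p of up to 0.089.

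H1-3, another linker gene, had a difference of -1.15 with 5-FU that missed the threshold (SE 0.31, adjusted p = 0.052) and passed at -1.45 without 5-FU replicate 3 and TQ+5-FU replicate 2 (adjusted p = 1.9e-04). Its signals were 7.81, 8.77 and 8.08 in TQ+5-FU cells, 7.68, 7.08 and 8.28 in 5-FU cells, 8.62, 8.45 and 8.21 in TQ cells and 8.78, 8.71 and 9.03 in control cells. H1-2, the linker gene read by the probe set with the highest signal of its class, was at 10.53, 11.13 and 10.66 in TQ+5-FU cells, 10.33, 10.46 and 11.14 in 5-FU cells, 10.81, 10.52 and 10.39 in TQ cells and 10.92, 10.81 and 10.94 in control cells. All 3 TQ arrays of H1-2 lay at or below the lowest control, and its differences of -0.12, -0.25 and -0.32 with TQ+5-FU, 5-FU and TQ did not pass. Without the displaced arrays H1-2 passed the F test (adjusted p = 0.027). The remaining linker genes, H1-1 and H1-5, were measured between 3.52 and 5.22 and were not called. Over the 5 linker genes the medians were 0.00 with TQ+5-FU, -0.25 with 5-FU and -0.18 with TQ. Without the displaced arrays they were -0.20 with TQ+5-FU and -0.50 with 5-FU.

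Of the H2A genes, whose product pairs with H2B, H2AC6 (chr6:26124172-26124690) alone passed in a comparison with control on the probe sets that stand for the genes. Its signals were 9.73, 9.77 and 9.85 in TQ+5-FU cells, 9.01, 9.10 and 8.10 in 5-FU cells, 8.90, 8.98 and 8.96 in TQ cells and 8.70, 8.74 and 8.81 in control cells. Every TQ+5-FU array exceeded every other array, and 5-FU replicate 3 lay below all controls while the other 5-FU arrays lay above them. H2AC6 rose by 1.03 with TQ+5-FU (SE 0.22, adjusted p = 0.034, 2.05-fold), against -0.01 with 5-FU and 0.20 with TQ. The rise was 1.04 without the displaced arrays (adjusted p = 1.9e-05), but it missed the threshold when any 1 TQ+5-FU, TQ or control array was left out, with an adjusted p of up to 0.15. H2AC25, on chromosome 1, was at 9.29, 10.00 and 9.39 in TQ+5-FU cells, 8.97, 9.0 and 10.04 in 5-FU cells, 9.62, 9.29 and 9.32 in TQ cells and 9.69, 9.70 and 9.82 in control cells, and was not called. The other 6 H2A genes had differences between -0.44 and 0.44 in the comparisons with control and were not called. Without the displaced arrays 7 of the 8 H2A genes passed the F test, H2AC25 among them (adjusted p = 0.0017), beside 42% of all probe sets. A probe set that names several H2A genes rose with 5-FU and with TQ+5-FU and is described below. As a class, H2A had a median of 0.28 with TQ+5-FU, -0.18 with 5-FU and -0.08 with TQ, and without the displaced arrays 0.16 with TQ+5-FU and -0.43 with 5-FU, where 5 of 8 genes were lower with 5-FU and 1 was higher.

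H2B was the class with the most calls, and H2BC12 was the histone gene called in the most comparisons. H2BC12 (chr6:27138293-27146858) had signals of 11.46, 11.82 and 11.62 in TQ+5-FU cells, 10.96, 11 and 11.17 in 5-FU cells, 11.19, 11.27 and 11.23 in TQ cells and 10.38, 10.42 and 10.49 in control cells. The 4 groups did not overlap, in the order TQ+5-FU, TQ, 5-FU and control. It rose by 1.2 with TQ+5-FU (SE 0.11, adjusted p = 5.1e-04, 2.30-fold), 0.61 with 5-FU (adjusted p = 0.010) and 0.80 with TQ (adjusted p = 0.027). TQ+5-FU exceeded 5-FU by 0.60 (adjusted p = 0.0498), and the difference of 0.41 from TQ did not pass (adjusted p = 0.15). Leaving out any 1 array kept the rise with TQ+5-FU past the threshold. The rise with 5-FU was lost without control replicate 1 or 2 (adjusted p of up to 0.058). The rise with TQ was lost without any 1 TQ or control array, 5-FU replicate 2 or TQ+5-FU replicate 3 (adjusted p of up to 0.19), and the difference from 5-FU was lost without any 1 array other than 5-FU replicate 3 (adjusted p of up to 0.20).

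H2BC12L, a near copy on chromosome 21, was at 10.77, 11.07 and 10.89 in TQ+5-FU cells, 10.01, 10.10 and 10.23 in 5-FU cells, 10.35, 10.40 and 10.39 in TQ cells and 9.67, 9.64 and 9.87 in control cells, in the same order of groups with no overlap. It rose by 1.19 with TQ+5-FU (SE 0.12, adjusted p = 5.8e-04) and exceeded 5-FU by 0.80 (adjusted p = 0.014). The second call was lost without TQ+5-FU replicate 2 or 3 or 5-FU replicate 1 or 2, with an adjusted p of up to 0.072. Its probe set is of the kind that can bind several similar transcripts, so H2BC12 and H2BC12L may share signal. The probe sets of H2BC6 and H2BC5 are of the same kind, so the H2B calls may not all come from separate genes. Those of H3C2, H4C8 and H2AC6 end in _s_at, a mark of probes that can be shared by several transcripts, so the same limit may hold there. Without the displaced arrays the rises with TQ+5-FU were 1.11 for both (adjusted p = 1.6e-05 for H2BC12 and 3.1e-05 for H2BC12L), and the differences from 5-FU were 0.57 (adjusted p = 0.0049) for H2BC12 and 0.78 (adjusted p = 0.0017) for H2BC12L.

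H2BC11 (chr6:27132316-27132795) was called with 5-FU as well as with the combination. Its signals were low, at 4.86, 5.18 and 4.84 in TQ+5-FU cells, 4.48, 4.86 and 4.97 in 5-FU cells, 4.17, 4.45 and 4.14 in TQ cells and 3.80, 3.66 and 3.85 in control cells. All treated arrays lay above the controls, and the 5-FU arrays reached into the range of the TQ+5-FU arrays. H2BC11 rose by 1.19 with TQ+5-FU (SE 0.16, adjusted p = 0.0034) and by 1.00 with 5-FU (adjusted p = 0.0042), whereas 0.48 with TQ did not pass (adjusted p = 0.30). Both calls held when each array was left out in turn. It belongs to 12 histone genes whose mean signal lay in the dimmest 30% of all probe sets, under a log2 signal of 5.00.

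H2BC6 was at 10.28, 10.56 and 10.37 in TQ+5-FU cells, 9.55, 9.71 and 9.92 in 5-FU cells, 9.95, 9.88 and 9.97 in TQ cells and 9.52, 9.47 and 9.81 in control cells, with TQ+5-FU above every other array. It rose by 0.80 with TQ+5-FU (SE 0.14, adjusted p = 0.013), a call lost without TQ+5-FU replicate 2 or control replicate 1 or 2 (adjusted p of up to 0.081). Its rise was 0.72 without both displaced arrays (adjusted p = 0.0011). H2BC17 was at 4.55, 5.19 and 4.84 in TQ+5-FU cells, 4.07, 3.96 and 3.99 in 5-FU cells, 4.30, 4.54 and 4.61 in TQ cells and 4.02, 4.17 and 4.44 in control cells. Its TQ+5-FU arrays lay above the controls and the 5-FU arrays, and it passed the F test (adjusted p = 0.045) but no single comparison (0.65 with TQ+5-FU, adjusted p = 0.094). The other 6 H2B genes, which passed no test on all 12 arrays, were H2BC9, H2BC21, H2BC3, H2BC15, H2BC13 and H2BC14. Without the displaced arrays H2BC9 (adjusted p = 0.010) and H2BC21 (adjusted p = 0.0054) passed the F test. In that fit 6 H2B genes were higher and 0 lower with TQ+5-FU, 3 and 1 with 5-FU, and 4 and 2 with TQ. The shares of all probe sets called were 21.4%, 26.1% and 30.6%. H2B had a median of 0.51 with TQ+5-FU, 0.14 with 5-FU and 0.14 with TQ. Over the 10 arrays that were not displaced, it was 0.32 with TQ+5-FU and 0.0036 with 5-FU.

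H2BC5 was read by probe sets that differed in which comparisons passed. On the one with the higher mean signal it was at 10.21, 10.63 and 10.38 in TQ+5-FU cells, 9.63, 9.74 and 10.19 in 5-FU cells, 9.87, 9.68 and 9.74 in TQ cells and 9.56, 9.59 and 9.84 in control cells, so that TQ+5-FU exceeded all other arrays and the other groups overlapped. There it rose by 0.74 with TQ+5-FU (SE 0.17, adjusted p = 0.047), a call lost without any 1 array other than 5-FU replicate 1 or 3 (adjusted p of up to 0.22), and 0.63 without both displaced arrays (adjusted p = 0.0024). On the other it was at 10.05, 10.50 and 10.16 in TQ+5-FU cells, 9.54, 9.72 and 9.75 in 5-FU cells, 9.35, 9.28 and 9.21 in TQ cells and 8.92, 8.89 and 8.97 in control cells, with no overlap between any groups. This probe set rose by 1.32 with TQ+5-FU (adjusted p = 5.8e-04) and 0.74 with 5-FU (adjusted p = 0.0066), and was higher by 0.96 in TQ+5-FU than in TQ cells (adjusted p = 0.0093).

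**Figure D4:**
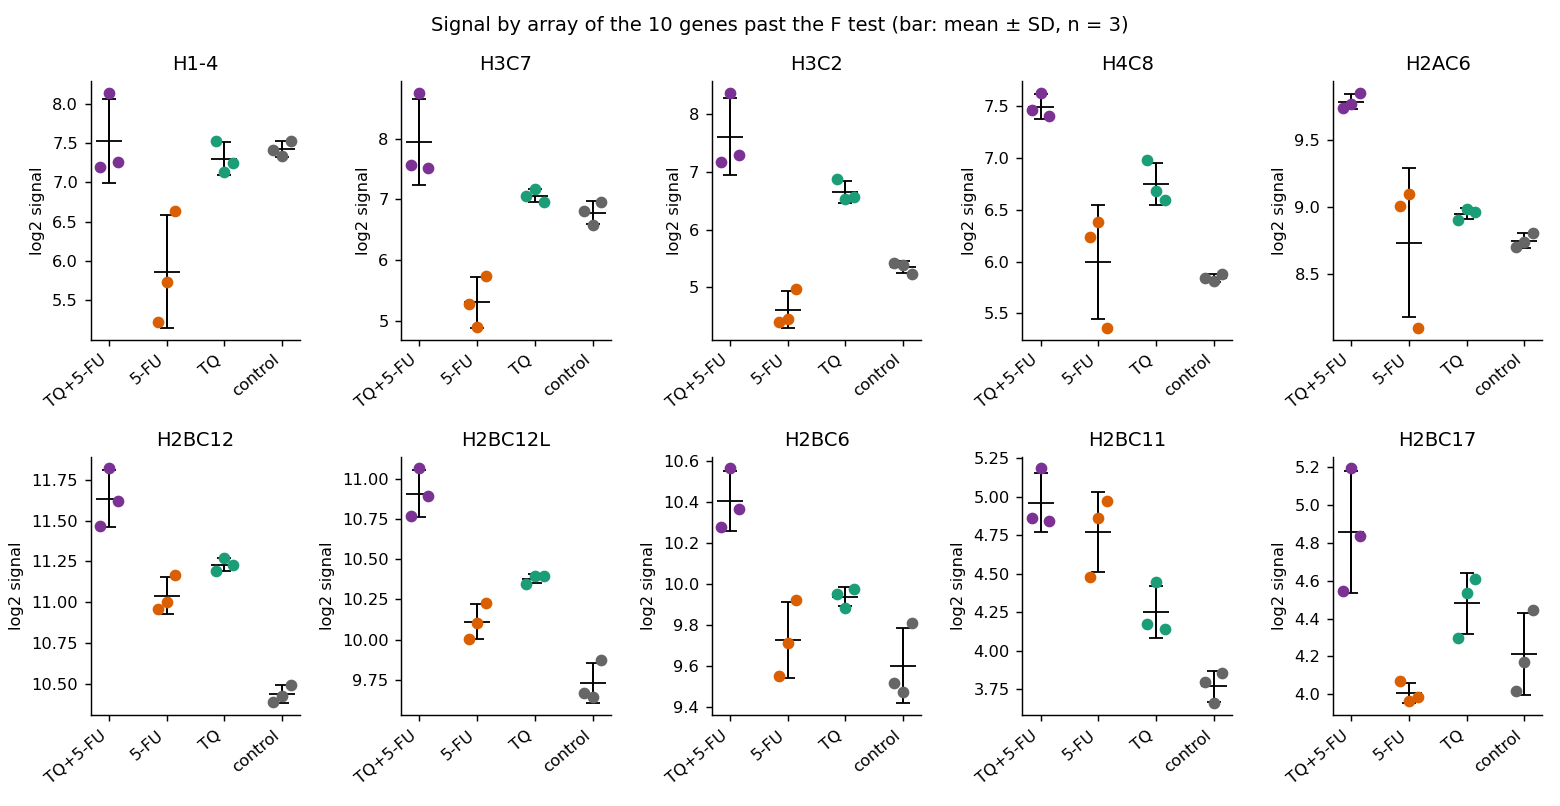
Log2 signal (vertical axis, scaled per gene) of the 10 histone genes past the F test, by group (horizontal axis), with 1 point per array and bars for mean ± SD (n = 3). TQ+5-FU points of H3C2 lie at 7.17 to 8.37 and its 5-FU points at 4.41 to 4.98.

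The H3 class held the largest differences of all histone genes, in H3C2 and H3C7, while the remaining 5 genes were not called. Without the displaced arrays 4 of the 7 H3 genes passed the F test, beside 42% of all probe sets. Probe sets that name H3C2 and H3C7 together with other genes, described below, were not called with 5-FU. H3C2 (chr6:26031589-26032099) was at 7.17, 8.37 and 7.29 in TQ+5-FU cells, 4.41, 4.46 and 4.98 in 5-FU cells, 6.88, 6.52 and 6.57 in TQ cells and 5.42, 5.39 and 5.23 in control cells. No groups overlapped, with TQ+5-FU highest, then TQ, control and 5-FU. H3C2 rose by 2.26 with TQ+5-FU (SE 0.29, adjusted p = 0.0028, 4.79-fold). TQ+5-FU exceeded 5-FU by 2.99 (SE 0.29, adjusted p = 0.0023), and 5-FU lay below TQ (log2 difference -2.04, SE 0.29, adjusted p = 0.0022). All 3 5-FU signals of H3C2 lie under 5.00, in the range of the dimmest 30% of probe sets by mean, so no fold is given against them. These 3 calls held when each array was left out in turn. The differences of -0.73 with 5-FU alone (adjusted p = 0.20) and 1.31 with TQ alone (adjusted p = 0.11) did not pass over all arrays, and passed at -0.91 (adjusted p = 2.0e-04) and 1.31 (adjusted p = 6.7e-05) without the displaced arrays.

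H3C7 (chr6:26250142-26250635), which encodes an H3 of the same class, was at 7.56, 8.76 and 7.51 in TQ+5-FU cells, 5.27, 4.90 and 5.73 in 5-FU cells, 7.05, 7.17 and 6.96 in TQ cells and 6.80, 6.58 and 6.96 in control cells. TQ+5-FU lay above and 5-FU below all other arrays, with TQ touching the control range. H3C7 fell by 1.48 with 5-FU (SE 0.32, adjusted p = 0.019, 2.78-fold), a call lost without 5-FU replicate 2 or any 1 control array (adjusted p of up to 0.083). In TQ+5-FU cells it was 2.64 higher than in 5-FU cells (SE 0.32, adjusted p = 0.0050), and in 5-FU cells lower than in TQ cells (log2 difference -1.76, adjusted p = 0.0078), both of which held without any 1 array. Against control the 1.16 with TQ+5-FU did not pass (adjusted p = 0.098, and 0.0028 at 0.76 without the displaced arrays). H3C8, read by the probe set with the highest signal among the H3 genes, was at 7.54, 8.32 and 7.59 in TQ+5-FU cells, 7.53, 7.69 and 7.98 in 5-FU cells, 7.59, 7.39 and 7.56 in TQ cells and 7.40, 7.49 and 7.57 in control cells, with overlapping groups. H3 had a median of 0.26 with TQ+5-FU, 0.09 with 5-FU and 0.02 with TQ. It was 0.09 with TQ+5-FU and 0.10 with 5-FU without the displaced arrays.

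H4C8 (chr6:26285126-26285534) was the H4 gene called. It was at 7.46, 7.62 and 7.40 in TQ+5-FU cells, 6.24, 6.38 and 5.36 in 5-FU cells, 6.98, 6.68 and 6.59 in TQ cells and 5.84, 5.81 and 5.88 in control cells. TQ+5-FU lay above TQ and TQ above control without overlap, whereas the 5-FU arrays lay on both sides of the controls, with replicate 3 the lowest array of all. H4C8 rose by 1.65 with TQ+5-FU (SE 0.23, adjusted p = 0.0045, 3.14-fold), which held without any 1 array. With the displaced arrays left out, 5-FU also passed, at 0.47 (adjusted p = 0.0094), and TQ+5-FU was at 1.58 (adjusted p = 1.3e-05). It exceeded 5-FU by 1.5 (adjusted p = 0.019), a call lost without any 1 TQ+5-FU array (adjusted p of up to 0.082), and 0.91 with TQ did not pass (adjusted p = 0.17). H4C11 was at 9.86, 10.41 and 9.89 in TQ+5-FU cells, 9.34, 9.53 and 10.29 in 5-FU cells, 10.08, 9.68 and 9.57 in TQ cells and 10.09, 10.17 and 10.26 in control cells, with every TQ array below every control, and was not called. Without the displaced arrays H4C11 passed the F test (adjusted p = 0.0079). H4C5 had 0.95 with TQ+5-FU (adjusted p = 0.090) and passed at 0.71 without the displaced arrays (adjusted p = 5.4e-04). The medians of the 8 H4 genes were 0.10 with TQ+5-FU, -0.02 with 5-FU and -0.05 with TQ, and 0.10 with TQ+5-FU and -0.16 with 5-FU without the displaced arrays.

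On the probe sets that stand for them, none of the 8 variant genes was called by limma in a comparison with control. This depends on that choice, since a dimmer probe set of MACROH2A1, described below, rose with 5-FU and with TQ+5-FU. An unadjusted p was under 0.05 for 1 variant gene with TQ+5-FU (lower), 2 with 5-FU (1 higher, 1 lower) and 1 with TQ (lower). The shares of all probe sets at that unadjusted p were 5.31% higher and 5.87% lower with TQ+5-FU (11.2% in all), 9.37% and 9.09% with 5-FU (18.5% in all), and 3.37% and 6.34% with TQ (9.71% in all). When the displaced arrays were left out, 3 were lower with TQ+5-FU, 1 with 5-FU and 3 with TQ, and 0 were higher. Differences ranged between -0.37 and 0.31 over these comparisons. H2AZ1, whose product H2A.Z marks promoters, was at 13.19, 13.15 and 13.12 in TQ+5-FU cells, 13.24, 13.11 and 13.02 in 5-FU cells, 13.29, 13.33 and 13.26 in TQ cells and 13.34, 13.35 and 13.35 in control cells, with every treated array below the controls by small steps (-0.19, -0.22 and -0.05, not called). H2AX, the variant phosphorylated at DNA breaks, was at 11.59, 11.91 and 11.74 in TQ+5-FU cells, 11.76, 11.85 and 12.37 in 5-FU cells, 12, 11.83 and 11.65 in TQ cells and 12.07, 12.01 and 12.10 in control cells. The TQ+5-FU and TQ arrays of H2AX lay below the controls and 5-FU replicate 3 above them, and its differences of -0.31, -0.07 and -0.23 were not called. Without the displaced arrays H2AX passed the F test (adjusted p = 0.045).

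H2AZ2, the second H2A.Z gene, was the variant called between the single drugs. It was at 11.55, 11.65 and 11.58 in TQ+5-FU cells, 11.76, 11.82 and 11.85 in 5-FU cells, 11.46, 11.42 and 11.32 in TQ cells and 11.55, 11.52 and 11.61 in control cells. The 5-FU arrays lay above and the TQ arrays below all others. H2AZ2 was 0.41 higher in 5-FU than in TQ cells (SE 0.09, adjusted p = 0.020), a call lost without TQ replicate 2 or 3 (adjusted p of up to 0.10). A dimmer probe set of H2AZ2 had -0.85 against TQ (SE 0.56, adjusted p = 0.29), which was -0.02 without the displaced arrays, with 10.96, 10.76 and 8.38 in 5-FU cells and 10.67, 11.02 and 10.94 in TQ cells. Another had -0.71, and 0.12 without those arrays, and was not called in either. H1-10, a linker variant, was at 9.98, 10.56 and 10.05 in TQ+5-FU cells, 10.04, 10.11 and 10.87 in 5-FU cells, 10.40, 10.18 and 9.96 in TQ cells and 10.51, 10.52 and 10.57 in control cells. H3-3A, a gene of the replacement histone H3.3, was at 7.78, 8.76 and 8.10 in TQ+5-FU cells, 8.06, 8.14 and 8.16 in 5-FU cells, 7.67, 7.87 and 7.6 in TQ cells and 7.80, 7.81 and 8.09 in control cells, and neither was called. Without the displaced arrays H1-10 passed the F test (adjusted p = 0.010) and H3-3A did not (adjusted p = 0.13).

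MACROH2A1 encodes a large H2A variant with a macro domain, and its probe sets disagreed. On the one with the highest mean signal it was at 11.75, 11.92 and 11.80 in TQ+5-FU cells, 11.88, 11.90 and 12.05 in 5-FU cells, 11.85, 11.89 and 11.91 in TQ cells and 12.12, 12.10 and 12.08 in control cells, all treated arrays being below the controls with differences of -0.28, -0.16 and -0.22 that did not pass. On a dimmer probe set it was at 7.41, 7.29 and 7.49 in TQ+5-FU cells, 7.89, 7.89 and 8.07 in 5-FU cells, 6.67, 6.85 and 6.80 in TQ cells and 6.47, 6.40 and 6.64 in control cells. The groups did not overlap there, with 5-FU highest. This probe set rose by 1.44 with 5-FU (SE 0.11, adjusted p = 7.4e-05) and 0.89 with TQ+5-FU (SE 0.11, adjusted p = 0.0027), and was higher by 1.18 in 5-FU than in TQ cells (adjusted p = 2.2e-04) and by 0.62 in TQ+5-FU than in TQ cells (adjusted p = 0.033). The remaining probe set of MACROH2A1 had -0.31 with TQ+5-FU, -0.15 with 5-FU and -0.29 with TQ and was not called. Without the displaced arrays it was lower with TQ+5-FU (-0.36, adjusted p = 0.0059) and with TQ (-0.29, adjusted p = 0.0078). With 5-FU it then had -0.21 and did not pass (adjusted p = 0.063). The brightest probe set passed the F test without those arrays (adjusted p = 0.016). The annotation does not say which transcripts of MACROH2A1 each of them reads. MACROH2A2 was at 8.44, 8.89 and 8.49 in TQ+5-FU cells, 8.38, 8.44 and 9.0 in 5-FU cells, 8.13, 8.25 and 8.20 in TQ cells and 8.48, 8.57 and 8.64 in control cells, with every TQ array below every control, and its -0.37 with TQ did not pass (adjusted p = 0.55, and 0.0039 without the displaced arrays).

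**Figure D5:**
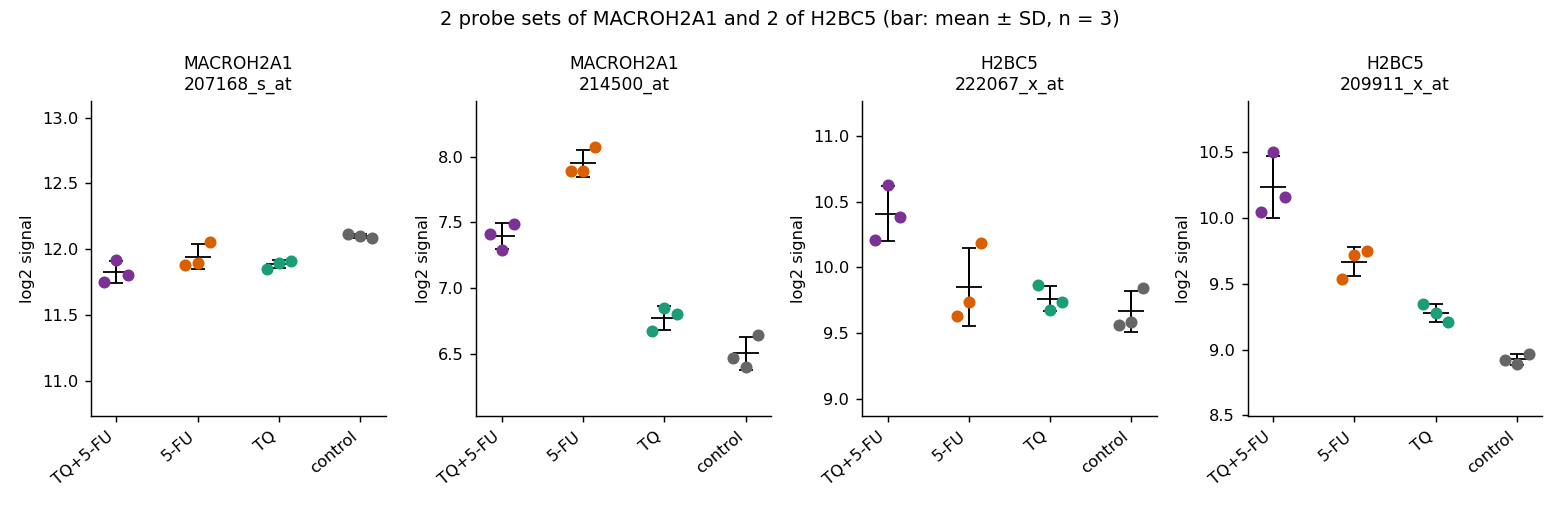
Log2 signal (vertical axis, spans of equal size) by group (horizontal axis) on 2 probe sets of MACROH2A1 and 2 of H2BC5, with 1 point per array and bars for mean ± SD (n = 3). For MACROH2A1 the 5-FU arrays lie below control on the brighter probe set and at 7.89 to 8.07, above all other arrays, on the dimmer one.

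A further 28 probe sets name several histone genes and so could not be given to 1 gene. With TQ+5-FU 6 of them were higher than control and 0 lower, with 5-FU 1 was higher and 1 lower, and with TQ 0 were called, beside 2.58%, 6.68% and 0.252% of all probe sets. Over the 10 arrays that were not displaced, 14 were higher and 1 lower with TQ+5-FU, 2 and 5 with 5-FU, and 7 and 1 with TQ, beside 21.4%, 26.1% and 30.6%. A probe set naming 6 H2A genes rose by 1.00 with 5-FU (adjusted p = 0.0026) and 0.76 with TQ+5-FU (adjusted p = 0.023). Without the displaced arrays it had 0.89 with 5-FU (adjusted p = 1.7e-04). The other probe set naming these genes had -0.30 with 5-FU and 0.39 with TQ+5-FU, neither called. Its 5-FU difference was -0.60 without those arrays (adjusted p = 0.0013), opposite in sign to the first. A bright probe set naming 14 H4 genes was at 13.02, 13.17 and 13.04 in TQ+5-FU cells, 12.49, 12.58 and 12.78 in 5-FU cells, 13.29, 13.18 and 13.17 in TQ cells and 13.42, 13.37 and 13.38 in control cells, all treated arrays below the controls and 5-FU lowest. It fell by 0.77 with 5-FU (SE 0.11, adjusted p = 0.0018), and its -0.32 with TQ+5-FU did not pass (adjusted p = 0.20, and 0.0076 at -0.36 without the displaced arrays). A dimmer one that names the same 14 genes was at 7.69, 8.14 and 7.69 in TQ+5-FU cells, 6.95, 7.0 and 7.29 in 5-FU cells, 7.02, 6.96 and 7.02 in TQ cells and 6.78, 6.77 and 6.75 in control cells, and rose by 1.07 with TQ+5-FU (adjusted p = 0.0031). With 5-FU the dimmer probe set had 0.31 (adjusted p = 0.28), so that 2 probe sets annotated to the same H4 genes differed in sign in both comparisons. The other probe sets naming these 14 genes had -0.95, -0.51 and -0.31 with 5-FU. In the same order they had 0.59, -0.09 and 0.01 with TQ+5-FU, and none was called. Without the displaced arrays their 5-FU differences were -1.22 (adjusted p = 3.7e-05), -0.79 (adjusted p = 0.0015) and -0.28 (adjusted p = 0.14). For the pair H2BC11 and H2BC8, the dimmer shared probe set was at 6.79, 6.94 and 6.86 in TQ+5-FU cells, 5.00, 5.5 and 4.26 in 5-FU cells, 6.21, 6.33 and 6.31 in TQ cells and 5.04, 4.83 and 5.12 in control cells. It rose by 1.87 with TQ+5-FU (adjusted p = 0.0033) but had -0.08 with 5-FU (adjusted p = 0.87) and 1.29 with TQ (adjusted p = 0.074). With the displaced arrays left out, its TQ difference passed (adjusted p = 2.0e-04), and that with 5-FU was 0.25 (adjusted p = 0.23). The brighter shared probe set had 1.07 with TQ+5-FU (adjusted p = 0.056), 0.03 with 5-FU and 0.44 with TQ, none called. Without the displaced arrays it had 0.85 with TQ+5-FU (adjusted p = 9.3e-05) and 0.44 with TQ (adjusted p = 0.0018). With 5-FU it then lay lower than control, at -0.28 (adjusted p = 0.032). The probe sets naming H3C2 and H3C7 together with other genes had -0.01, 0.15 and 0.26 with 5-FU, none called. Without the displaced arrays these were -0.05, -0.13 and 0.03, and none passed. In the same order they had 0.47 (adjusted p = 0.065), 1.62 (adjusted p = 0.0086) and 0.45 (adjusted p = 0.37) with TQ+5-FU over all arrays.

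No histone gene passed for the interaction, that is, TQ+5-FU minus TQ minus 5-FU plus control, where 0.126% of all probe sets were called by limma (0.09% positive, 0.036% negative). An unadjusted p was under 0.05 for 8 histone genes, all positive, beside 4.31% of all probe sets positive and 1.78% negative (6.09% in all). When the displaced arrays were left out, 17 were called, all positive, where 9.89% of all probe sets were called (5.35% positive, 4.53% negative). The largest values were 2.36 for H3C7 (SE 0.45, adjusted p = 0.099), 1.78 for H1-4 (SE 0.48, adjusted p = 0.30) and 1.68 for H3C2 (SE 0.41, adjusted p = 0.22). For H2BC12 it was -0.20 and for H2BC11 -0.29 (adjusted p = 1.0 for both).

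The genes that supply histone mRNA are given by count. Of 14 genes measured for histone mRNA supply (21 listed), 1 rose with TQ+5-FU, 2 with 5-FU and 0 with TQ, and 0 fell, beside 2.58%, 6.68% and 0.252% of all probe sets called. Over the 10 arrays that were not displaced, 4 rose with TQ+5-FU, 5 with 5-FU and 5 with TQ, where 3 also fell, beside 21.4%, 26.1% and 30.6%. CCNE1, the cyclin that acts at S phase entry, rose with TQ+5-FU (0.70, adjusted p = 0.017) and 5-FU (0.56, adjusted p = 0.024), and CDK2, its kinase, with 5-FU (0.60, adjusted p = 0.0096). HINFP, an activator of H4 genes, was 0.81 higher in 5-FU than in TQ cells (adjusted p = 0.012). SLBP, which binds the histone mRNA stem-loop, was at 11.35, 11.04 and 11.26 in TQ+5-FU cells, 11.56, 11.46 and 10.52 in 5-FU cells, 11.27, 11.54 and 11.53 in TQ cells and 11.48, 11.45 and 11.33 in control cells, and was not called. NPAT, the activator of histone gene transcription, had differences of -0.26, -0.33 and 0.39 with TQ+5-FU, 5-FU and TQ, none of which passed. With the displaced arrays left out, the 5-FU differences of SLBP and NPAT were 0.09 and 0.11 and did not pass.

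Among 25 histone chaperone and exchange genes measured, 0 rose and 1 fell with TQ+5-FU, 1 rose and 5 fell with 5-FU, and 0 were called with TQ, beside 3.13% of all probe sets lower with 5-FU and 1.1% lower with TQ+5-FU. When the displaced arrays were left out, 8 fell with TQ+5-FU, 10 fell and 2 rose with 5-FU, and 12 fell and 3 rose with TQ, beside 21.4%, 26.1% and 30.6% of all probe sets called. EP400, the ATPase of a complex that exchanges histones, fell by 0.86 with TQ+5-FU (adjusted p = 0.0029) and by 0.85 with 5-FU (adjusted p = 0.0014). HIRA, a chaperone of H3.3, fell by 0.94 with 5-FU (adjusted p = 0.0089), and ATRX, part of another H3.3 chaperone, by 1.35 (adjusted p = 0.039). SSRP1, a subunit of the FACT chaperone, fell by 0.83 with 5-FU (adjusted p = 0.012). CHAF1B, a subunit of the chaperone that loads H3 and H4 behind the fork, rose by 0.42 (adjusted p = 0.033). ASF1B, which hands H3 and H4 to it, had 0.77 with 5-FU (adjusted p = 0.072) and was 1.15 higher in 5-FU than in TQ cells (adjusted p = 0.011). Of 22 other S phase genes, 0 rose and 1 fell with TQ+5-FU, 1 rose and 1 fell with 5-FU, and 0 were called with TQ, beside 2.58%, 6.68% and 0.252% of all probe sets. Over the 10 arrays that were not displaced, 1 rose and 8 fell with TQ+5-FU, 5 rose and 4 fell with 5-FU, and 6 rose and 7 fell with TQ, beside 21.4%, 26.1% and 30.6%. MCM7, a subunit of the replicative helicase, fell by 0.74 with TQ+5-FU (adjusted p = 0.0074) and by 0.69 with 5-FU (adjusted p = 0.0050), TK1 rose by 1.05 with 5-FU (adjusted p = 0.011), and PCNA had 0.18, 0.25 and 0.07 with TQ+5-FU, 5-FU and TQ (not called, but passing at 0.60 with 5-FU without the displaced arrays, adjusted p = 0.0012).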

How the data were processed

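RNA of RKO cells on 12 arrays (4 groups of 3) was analysed. The authors normalized the arrays by RMA and deposited log2 signals, 1 column per array; the methods name GeneSpring for this step and the labels Affymetrix Expression Console. RMA is meant to set the arrays to one distribution, so a global change in RNA is not seen, and probes shared by histone copies mix their signals. The medians of the deposited arrays still ran from 6.33 to 6.55, so shifts of whole arrays remain in the values. Of 22277 probe sets, 62 controls were left out and 22215 tested. Each group had 1 mean in a single fit of limma 3.58.1 (R 4.3.3) with empirical Bayes moderation and two-sided tests, and p-values were adjusted by Benjamini-Hochberg over all 22215. Names come from the platform annotation (19064 probe sets with 1 gene, 1043 with several, 2108 with none), and positions and start regions from RefSeq (GRCh38.p14). Members, lists, the 2 displaced arrays and alternatives were chosen with earlier results of these data known.

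Values by array are given for members past a test and, in each class, for the gene with the highest mean signal and the one with the largest difference from control; H1-3, H4C5, CHAF1B and the probe sets naming several genes were added after their values were seen. From each other list up to 4 called genes and its lead gene are named. Alternatives were the methods' ANOVA with Tukey's HSD, the methods' t-test, limma on 2 groups, a replicate block, quantile normalization, median centring, a filter on the 30% dimmest probe sets, avoiding probe sets ending in _x_at, and leaving out arrays. The fit was tested on simulated data. The number of arrays limits the precision. Plots used matplotlib 3.10.9 under Python 3.11.15.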

Additional observations from a re-analysis of the deposited data

Results flagged for a closer look

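In H3C2 all 3 5-FU arrays lay below all controls, whereas all 3 TQ+5-FU arrays lay above all TQ arrays. The difference was 0.95 with TQ present (TQ+5-FU against TQ) and -0.73 without it (5-FU against control), which makes an interaction of 1.68 (adjusted p = 0.22, not passed).

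H3C7 showed the same opposite directions, with 0.88 for TQ+5-FU against TQ and -1.48 for 5-FU against control, an interaction of 2.36 (adjusted p = 0.099, not passed). Without the 2 displaced arrays the interaction was 1.48 for H3C2 (adjusted p = 0.0014) and 2.17 for H3C7 (adjusted p = 5.6e-04).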

How the results depend on the processing

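No called gene result changed sign under the alternatives run. Tukey's HSD, the t-test and limma on 2 groups share the group means of the main fit, so their signs could not differ. Avoiding probe sets ending in _x_at changed the probe set of no histone gene. The median over the 48 genes with 5-FU, at 0.00, was -0.16 without the 2 displaced arrays and -0.03 under quantile normalization. The median of TQ+5-FU against 5-FU was 0.37 without 5-FU replicate 3, beside 0.18. Of 22 gene results past the threshold, 22 kept it without the 2 displaced arrays, 20 of 20 with a gene present did under the filter on dim probe sets, 18 under quantile normalization, 17 under median centring, 16 with the replicate block, 12 under Tukey's HSD and 11 under limma on the 2 groups compared, and 6 of 13 did under the methods' t-test.

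Counts of called histone genes moved as follows, beside main counts of 8 (TQ+5-FU against control), 4 (5-FU against control), 1 (TQ against control), 5 (TQ+5-FU against 5-FU), 0 (TQ+5-FU against TQ), 4 (5-FU against TQ), 0 (interaction) and 10 (F). Without the 2 displaced arrays they were 17, 21, 17, 18, 12, 22, 17 and 32 in that order. Tukey's HSD gave 5, 2, 2 and 2 for TQ+5-FU against control, 5-FU against control, TQ+5-FU against 5-FU and 5-FU against TQ. The methods' t-test gave 0 for 5-FU and 8 for TQ against control. With limma on 2 groups the counts were 0 for 5-FU against control, 16 for TQ against control, 0 for TQ+5-FU against 5-FU, 1 for TQ+5-FU against TQ and 2 for 5-FU against TQ. That fit takes the spread from the compared groups only, whereas the main fit pools it over all 4, the displaced arrays included. Median centring gave 0 for TQ against control and 3 for TQ+5-FU against 5-FU, and quantile normalization 1 for TQ+5-FU against TQ. With the replicate block the counts were 6, 3, 0, 4, 0, 3, 0 and 7. Apart from the fit without the 2 displaced arrays, shares of all probe sets were not computed under these alternatives. The counts are therefore not read as a histone result, and the causes were not tested.

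Leaving out 1 array gave 5 to 13, 1 to 12, 0 to 4, 2 to 15, 0 to 12, 2 to 9, 0 to 7 and 6 to 21, the highest count always without 5-FU replicate 3. No share of all probe sets was computed for these fits either. Deviations from group means correlated at -0.84 to 0.86 for the 18 pairs of arrays with equal replicate number and at -0.88 to 0.88 for the 36 others. Deviations within a group of 3 are tied to each other, and the widest values lie between the groups with a displaced array. These correlations therefore cannot decide whether replicate numbers pair the arrays. Signals near the dim end, as in 12 of the 48 genes and in the 5-FU arrays of H3C2, compress differences, and 3 arrays per group limit the changes that can be called.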
